A study of Mus musculus with 9 samples.

Results

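Transcripts of 10 genes of the MYC, MAX and MXD network were measured by RNA-seq in G1E cells that had received a mutant human GATA1, a wildtype human GATA1 or no GATA1. The members were taken by gene symbol: Myc and Mycn (activators), Max (their partner), Mxd1, Mxd3, Mxd4, Mxi1 and Mnt (antagonists), and Mga and Mlx (further members). All 10 had a row among the 27999 rows of the count table, and 9 of them were among the 9978 genes tested; Mycn had no counts. G1E is a line of mouse erythroid progenitors without functional Gata1, so every library, controls included, came from cells without their own GATA1, the transcription factor that drives red cell maturation. The cells grew in IMDM with murine stem cell factor (SCF) and erythropoietin (EPO) and were spin-infected with virus made in 293T cells from the HMD vector. In the GATA1_mut group the vector carried a human GATA1 mutant, in the GATA1_wt group it carried human wildtype GATA1, and in the HMD group it was empty. Each group had 3 libraries. Not given in the sources used here are the mutation, the vector's promoter, the time after infection and any selection of infected cells.

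MYC and MYCN are basic helix-loop-helix zipper proteins that bind DNA as dimers with MAX and activate genes of growth and cell division. The MXD proteins, MXI1 and MNT also pair with MAX on the same E-box sequence, CACGTG, but recruit the SIN3 corepressor, so the make-up of the MAX dimers shifts target genes between activation and repression. In the red cell lineage MYC falls and MXD proteins accumulate as progenitors stop dividing and mature.

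The E-box that these dimers read also occurs in promoters of network genes, and the windows that hold it are shown for that reason. RefSeq promoters (GRCm38.p6), each running from 250 bases before to 50 bases after a gene's start, were matched for 9 of the 10 members, Myc being the exception; Mxi1 had 3 and each other gene 1, so there were 11 in all. CACGTG, which reads the same on both strands, occurred in the promoters of Max, Mlx, Mnt and Mxd4, 4 of the 11, and in 7.15% of 32851 mouse promoters of that length. Its first base lay at position −3 from the start in Max, −40 in Mlx, −123 in Mnt and −219 in Mxd4. The 30 bases around it follow, 5′ to 3′ on the gene's strand, with the E-box in capitals.
Max, chr12:76962234-76962263, minus strand: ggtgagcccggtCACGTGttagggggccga
Mlx, chr11:101087238-101087267, plus strand: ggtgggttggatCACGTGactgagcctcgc
Mnt, chr11:74830789-74830818, plus strand: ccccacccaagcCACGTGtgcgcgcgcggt
Mxd4, chr5:34187912-34187941, minus strand: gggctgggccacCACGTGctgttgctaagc

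Mxd1 and Mxd3, the members that rose with wildtype GATA1, held no CACGTG in their promoters. The 250 bases before their starts are shown because both genes were called higher with the wildtype than with the empty vector. A part of these bases in that rise was not tested. Capitals mark GGGCGG, the word known as a GC box, and CCAAT, each searched on both strands.
Mxd1, chr6:86669160-86669409, minus strand: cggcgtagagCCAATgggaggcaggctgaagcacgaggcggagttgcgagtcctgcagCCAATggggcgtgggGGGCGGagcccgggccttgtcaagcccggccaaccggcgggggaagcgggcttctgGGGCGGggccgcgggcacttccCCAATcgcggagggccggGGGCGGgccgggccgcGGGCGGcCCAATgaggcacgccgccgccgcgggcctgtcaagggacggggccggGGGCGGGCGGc
Mxd3, chr13:55329732-55329981, minus strand: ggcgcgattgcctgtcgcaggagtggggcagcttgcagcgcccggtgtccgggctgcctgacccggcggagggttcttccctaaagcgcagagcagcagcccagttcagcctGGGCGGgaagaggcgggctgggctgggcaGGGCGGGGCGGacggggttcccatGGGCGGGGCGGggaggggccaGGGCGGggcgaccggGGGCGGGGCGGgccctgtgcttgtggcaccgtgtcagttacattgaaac
These bases held GGGCGG 6 times in Mxd1 and 8 times in Mxd3, overlaps counted, and CCAAT 4 times in Mxd1 and 0 times in Mxd3. GGGCGG was in 9 of the 11 member promoters, every promoter of Mxi1 among them, and in 35.7% of all promoters. Counted by gene, it was in 7 of the 9 members with a promoter. CCAAT was in 3 of the 11 and in 37.4% of all promoters. GATA factors bind words such as AGATAA, which lay in 11.2% of all promoters and, on either strand, in 0 of the 300-base member promoters. The variant TGATAA lay in 9.05% of all and in 0 members, as did AGATAG, in 8.95% of all. The variant TGATAG was found in the promoter of Mlx and in 7.29% of all. The shorter word GATAA was found in the promoter of Mxd1, at position 11 after the start, and in 25.4% of all promoters. A match is a description of letters, not a site, and these windows do not cover distal elements.

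Library totals ranged from 11364358 to 17289307 counts. Human GATA1 stood at 598 to 706 CPM (counts adjusted for library size) in mutant libraries and at 715 to 921 CPM in wildtype libraries, and the empty vector libraries held 0, 2 and 0 counts of it. Mutant replicates 1 and 2 were closer to each other (chi-square 2.21 per degree of freedom) than any other pair of 1 group (15 to 55.7). They differed beyond sampling noise, which does not show whether they came from separate cultures. The fits kept them as 2 libraries, and results with both summed are also given. Empty vector replicate 3 lay closer to those libraries (7.08 and 7.11) than to the other empty vector libraries (50.04 and 26.3), and the members' values without it are also given. All 8 erythroid progenitor markers were detected in each group, at differing levels. Kit and Gata2 were lower in every wildtype library than in any other library, and Epor, Tfrc and Klf1 were higher. Wildtype ranges of Lmo2, Tal1 and Nfe2 overlapped with another group. Kit was at 560 to 647 CPM in mutant, 238 to 261 CPM in wildtype and 590 to 722 CPM in empty vector libraries. Mast cell, lymphoid and stromal marker sums stayed at or below 0.257 CPM and granulocyte and monocyte sums at or below 2.86 CPM, while megakaryocyte marker sums were 21.4 to 24.6 CPM in mutant, 12.8 to 17.5 CPM in wildtype and 29.0 to 37.3 CPM in empty vector libraries, with Gp1bb at 0. Globin transcripts took 0.121% to 0.129% of counts in mutant, 1.60% to 2.47% in wildtype and 0.0260% to 0.0301% in empty vector libraries. The part of these marker and globin differences in the results on the network was not tested.

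With wildtype GATA1, Myc fell and the antagonists Mxd1 and Mxd3 rose against the empty vector, while Max was not called. With the mutant, Myc, Mxd1 and Mxd3 had log2 fold changes of 0.10, 0.18 and 0.09 against the empty vector and were not called. Mxd1 stood at 4.36 times its empty vector level with the wildtype, Mxd3 at 2.51 times and Myc at 69.3%. The counts were tested with edgeR's quasi-likelihood test, adjusted by the Benjamini-Hochberg method over all 9978 genes in each comparison, and a gene was called at an adjusted p under 0.05. With the wildtype against the empty vector, 2 members rose (11.4% of all tested genes did) and 1 fell (11.9% of all did). With the mutant against the wildtype, 2 members were higher (13.2% of all) and 2 lower (12.7% of all). With the mutant against the empty vector, 0 of 9 members were called, beside 0.271% of all genes (0.21% higher and 0.0601% lower), and 0 members had an unadjusted p under 0.05, beside 1284 genes in all; DESeq2 also called 0 members. Both comparisons with the empty vector share its 3 libraries, so they are not independent. In RNA from pooled cells, fewer cells that express a gene cannot be told apart from less RNA per cell, and each p-value reflects how these libraries varied, not further cultures.

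**Figure D1:**
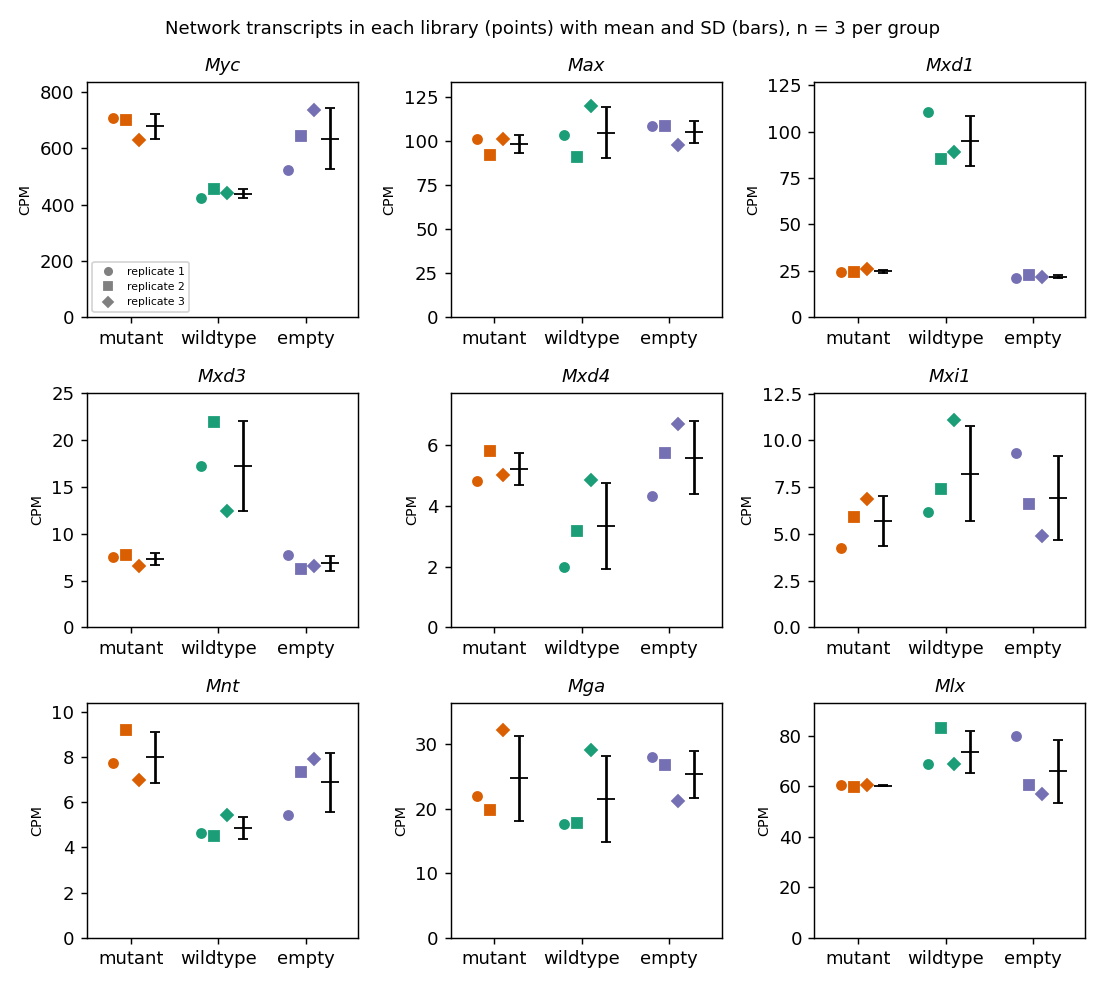
CPM (vertical axes, from 0, each panel on its own scale) of the 9 detected network genes in mutant, wildtype and empty vector libraries. Points are single libraries with a marker shape for each replicate number, and bars are mean and SD (n = 3). Mxd1 and Mxd3 are high and Myc is low in all 3 wildtype libraries; Max overlaps across the groups.

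Myc (chromosome 15, 61985391 to 61990374, plus strand; GENCODE M21, GRCm38) encodes the activator of the network and was by far its most abundant transcript. Myc was at 706, 702 and 628 CPM in mutant replicates 1, 2 and 3, at 423, 454 and 441 CPM in wildtype replicates and at 521, 644 and 737 CPM in empty vector replicates. The wildtype libraries lay below every other library, and the mutant range lay within the empty vector range. The wide spread of the empty vector libraries (634 ± 108 CPM, SD, n = 3) contrasted with 678 ± 44.1 CPM in mutant and 439 ± 15.8 CPM in wildtype libraries. Myc fell with the wildtype against the empty vector, with a log2 fold change of −0.53 ± 0.13 (SE; edgeR adjusted p = 0.0105). That call ended when wildtype replicate 1 was left out (edgeR adjusted p = 0.0765; range over all alternatives 0.00149 to 0.0765), and without empty vector replicate 3 the log2 fold change was −0.41 (edgeR adjusted p = 0.0343).

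Myc was higher with the mutant than with the wildtype, 1.55-fold, with a log2 fold change of 0.63 ± 0.13 (SE; edgeR adjusted p = 0.00404). The call held in all 19 alternatives, with log2 fold changes of 0.59 to 0.73. Against the empty vector the mutant gave 0.10 (95% interval −0.18 to 0.38; edgeR adjusted p = 0.754), a value that turned to −0.03 without empty vector replicate 1. The interval does not reach the −0.53 of the wildtype.

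Mycn (chromosome 12, 12936093 to 12941914, minus strand), the relative of Myc best known from neural tissue, had 0 counts in all 9 libraries. A count of 0 allows up to 0.170 to 0.289 CPM in single libraries (3 counts each), a limit that covers counting error only. Mycl, the other MYC relative, also had 0 counts, so Myc was the MYC family gene detected in these cells.

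Max (chromosome 12, 76937269 to 76962201, minus strand) encodes the obligate partner of MYC, the MXD proteins, MNT and MGA. It was at 101, 92.1 and 101 CPM in mutant, 103, 90.8 and 119.6 CPM in wildtype and 108, 109 and 97.7 CPM in empty vector libraries. The 3 ranges overlapped. The log2 fold change was −0.10 (95% interval −0.36 to 0.17; edgeR adjusted p = 0.738) for the mutant against the empty vector and −0.09 (−0.36 to 0.17; edgeR adjusted p = 0.603) for the mutant against the wildtype. For the wildtype against the empty vector it was −0.00 (−0.27 to 0.26; edgeR adjusted p = 0.986), where the sign turned with DESeq2's size factors.

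Mxd1 (chromosome 6, 86647042 to 86669161, minus strand) encodes MAD1, an antagonist that replaces MYC at MAX during differentiation. It was at 24.2, 24.4 and 25.8 CPM in mutant libraries, at 111, 85.5 and 89.2 CPM in wildtype libraries and at 21.1, 22.8 and 21.6 CPM in empty vector libraries. Every wildtype library lay far above every other, and the counts behind these values totalled 1230 in the mutant, 3287 in the wildtype and 949 in the empty vector group. Mxd1 rose with the wildtype against the empty vector by 2.12 ± 0.13 on the log2 scale (SE; edgeR adjusted p = 1.83e-07), a 4.36-fold change with a 95% interval of 3.57 to 5.32. By p-value it ranked 44 among the 9978 genes tested. With the mutant it was lower than with the wildtype, at 26.1% of the wildtype level (log2 fold change −1.94 ± 0.13, SE; edgeR adjusted p = 4.89e-07). Both calls held in all alternatives, with log2 fold changes of 2.03 to 2.19 and of −2.01 to −1.82.

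The mutant libraries also lay above the empty vector libraries in Mxd1 without overlap, by a small margin. The same absence of overlap held for 15% of all tested genes. The log2 fold change was 0.18 ± 0.13 (SE; 95% interval −0.10 to 0.47; edgeR adjusted p = 0.536), and it stayed between 0.16 and 0.23 in the alternatives without being called.

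Mxd3 (chromosome 13, 55325168 to 55329823, minus strand) encodes MAD3, the MXD protein that is known from cells in S phase. It was at 7.52, 7.78 and 6.56 CPM in mutant, 17.3, 21.95 and 12.4 CPM in wildtype and 7.77, 6.22 and 6.57 CPM in empty vector libraries. The wildtype libraries differed among themselves (17.2 ± 4.79 CPM, SD, n = 3) yet all lay above the other 6. Mxd3 rose with the wildtype against the empty vector by 1.33 ± 0.21 on the log2 scale (SE; edgeR adjusted p = 0.000553) and was lower with the mutant than with the wildtype (−1.24 ± 0.21, SE; edgeR adjusted p = 0.000997). Both calls held in all alternatives. For the mutant against the empty vector it was 0.09 (95% interval −0.37 to 0.55; edgeR adjusted p = 0.875).

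The library keeps no strand, and 105 bases of Mxd3 exons (4.43% of their merged length) overlap Prelid1 on the other strand, so reads there cannot be assigned to either gene. Prelid1 was at 453, 441 and 420 CPM on average in mutant, wildtype and empty vector libraries, and its log2 fold change for the wildtype against the empty vector was 0.07 (edgeR adjusted p = 0.718).

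Mxd4 (chromosome 5, 34173883 to 34187720, minus strand) encodes MAD4, an antagonist of differentiating cells. It was at 4.80, 5.79 and 5.0 CPM in mutant, 2.0, 3.18 and 4.83 CPM in wildtype and 4.33, 5.73 and 6.69 CPM in empty vector libraries. Wildtype replicate 3 reached into the ranges of both other groups. The log2 fold change was −0.75 ± 0.29 (SE; edgeR adjusted p = 0.0772) for the wildtype against the empty vector and 0.64 ± 0.29 (SE; edgeR adjusted p = 0.115) for the mutant against the wildtype. Neither was called, and 1 library moved both. Without wildtype replicate 3 they were −1.13 and 1.02 and were called (edgeR adjusted p = 0.0103 and 0.0175), and without wildtype replicate 1 they were −0.45 and 0.36 (edgeR adjusted p = 0.312 and 0.381). The value against the empty vector was also called with no filter on low counts (edgeR adjusted p = 0.0215). For the mutant against the empty vector the log2 fold change was −0.11 (95% interval −0.68 to 0.47; edgeR adjusted p = 0.882).

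Mxi1 (chromosome 19, 53310518 to 53375810, plus strand), an MXD family antagonist, spread widely within each group. It was at 4.24, 5.91 and 6.88 CPM in mutant, 6.16, 7.41 and 11.1 CPM in wildtype and 9.32, 6.57 and 4.89 CPM in empty vector libraries, and all 3 ranges overlapped. It was not called in any comparison, with log2 fold changes of −0.29 (95% interval −0.90 to 0.33) for the mutant and 0.25 (−0.36 to 0.86) for the wildtype against the empty vector, and −0.53 (−1.15 to 0.08) for the mutant against the wildtype.

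Mnt (chromosome 11, 74830920 to 74845725, plus strand) encodes a broadly expressed antagonist that pairs with MAX in dividing and resting cells alike. It was at 7.74, 9.22 and 7.01 CPM in mutant, 4.64, 4.53 and 5.45 CPM in wildtype and 5.43, 7.34 and 7.92 CPM in empty vector libraries. The wildtype libraries lay below all mutant libraries and met the lowest empty vector library. Unlike Mxd1 and Mxd3, Mnt was higher with the mutant than with the wildtype, 1.64-fold (log2 fold change 0.71 ± 0.20, SE; edgeR adjusted p = 0.0219). That call ended with mutant replicates 1 and 2 summed and when any of mutant replicates 1 and 2 or wildtype replicates 1 and 2 was left out, with adjusted p-values of 0.00699 to 0.0974 over the alternatives in edgeR or DESeq2. Against the empty vector, Mnt had −0.50 ± 0.21 (SE; edgeR adjusted p = 0.0969) with the wildtype, which was called without empty vector replicate 1 (0.0384) and reached 0.271 without wildtype replicate 1, and 0.21 (95% interval −0.21 to 0.63; edgeR adjusted p = 0.633) with the mutant.

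Mga (chromosome 2, 119897228 to 119969581, plus strand) encodes a large MAX partner of a Polycomb-type repressor complex. It was at 21.98, 19.9 and 32.3 CPM in mutant, 17.6, 17.8 and 29.2 CPM in wildtype and 28.02, 26.8 and 21.2 CPM in empty vector libraries. Within the mutant and the wildtype groups replicate 3 was the highest. Those libraries also had the highest share of mitochondrial transcripts, 0.890% and 1.23%, against 0.313% to 0.349% in replicates 1 and 2 of both groups. In the empty vector group that share was 0.505%, 0.601% and 0.343% in replicates 1, 2 and 3, and replicate 3 had the lowest Mga. The part of the mitochondrial share in Mga was not tested. The log2 fold changes were −0.04 (95% interval −0.53 to 0.45) for the mutant and −0.24 (−0.74 to 0.26) for the wildtype against the empty vector, and 0.20 (−0.30 to 0.70) for the mutant against the wildtype, none of them called.

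Mlx (chromosome 11, 101087277 to 101092207, plus strand) encodes a MAX-like partner of the MXD proteins, MNT and the glucose-sensing MONDO factors. It was at 60.7, 59.9 and 60.5 CPM in mutant, 68.7, 83.2 and 68.9 CPM in wildtype and 80.2, 60.5 and 57.2 CPM in empty vector libraries. The mutant libraries were nearly level with each other and all below the wildtype libraries; the empty vector libraries overlapped both. It was not called, with a log2 fold change of −0.29 ± 0.14 (SE; edgeR adjusted p = 0.158) for the mutant against the wildtype, 0.16 ± 0.14 (SE; 0.453) for the wildtype against the empty vector and −0.13 ± 0.14 (SE; 0.704) for the mutant against the empty vector. Exons of Mlx share 385 bases (19.3% of their merged length) with Psmc3ip on the other strand, which was at 41.8, 49.6 and 43.6 CPM on average in mutant, wildtype and empty vector libraries.

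**Figure D2:**
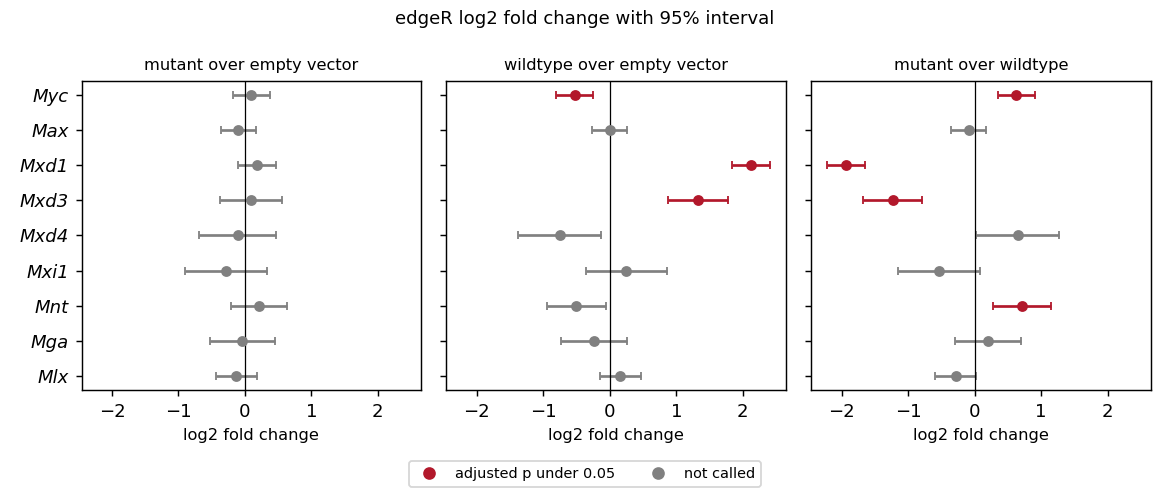
Log2 fold changes (horizontal axes) of the 9 tested members in edgeR with 95% intervals, in 3 panels: mutant over empty vector, wildtype over empty vector and mutant over wildtype. Red points were called at an adjusted p under 0.05; intervals of the first panel all include 0.

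Without empty vector replicate 3, Myc, Mxd1 and Mxd3 were still called for the wildtype against the empty vector and no further member was. The log2 fold changes of Max, Mxd4, Mxi1, Mnt, Mga and Mlx were then −0.05, −0.60, 0.05, −0.39, −0.35 and 0.06. For the mutant, 0 members were called without it, with 0.22 for Myc, 0.17 for Mxd1, 0.06 for Mxd3, −0.15 for Max, 0.04 for Mxd4, −0.49 for Mxi1, 0.32 for Mnt, −0.15 for Mga and −0.22 for Mlx.

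Mutant and wildtype libraries with the same replicate number had positive correlations of their deviations from the group means over genes, at 0.171 for replicate 1, 0.286 for replicate 2 and 0.533 for replicate 3. The number did not separate replicates 1 and 2, since mutant replicate 1 with wildtype replicate 2 gave 0.240 and mutant replicate 2 with wildtype replicate 1 gave 0.223, while replicate 3 of either group had −0.406 to −0.286 with replicates 1 and 2 of the other. Those of the empty vector did not pair with either by number. Across numbers, empty vector replicate 3 had 0.353 and 0.251 with mutant replicates 1 and 2. Its values with wildtype replicates 1 and 2 were 0.275 and 0.166. Empty vector replicates 1 and 2 had 0.275 and 0.301 with mutant replicate 3, and 0.0943 and 0.410 with wildtype replicate 3. A block by number does not follow that arrangement. A fit of only the 6 mutant and wildtype libraries, blocked by replicate number and added after seeing the data, called more: 7 members were called rather than 4. The additions were Mxd4 (edgeR adjusted p = 0.0349), Mxi1 (0.024) and Mlx (0.0163), and the calls over all genes grew alike, to 2323 higher and 2417 lower against 1313 higher and 1267 lower. With the wildtype against the empty vector, 5 members had an unadjusted p under 0.05, beside 3639 of all tested genes. The groups did not overlap for 3 members in that comparison and for 32.6% of all genes, and for 5 members and 44.2% of all genes for the mutant against the wildtype. The median log2 fold change of the 9 members was −0.04, −0.00 and −0.09 for the mutant against the empty vector, the wildtype against the empty vector and the mutant against the wildtype, against −0.00, −0.04 and −0.01 over all tested genes.

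Levels between genes were compared per length, as RPKM (CPM per kilobase of merged exons). Myc led at 249.7 ± 16.2 RPKM in mutant, 162 ± 5.81 RPKM in wildtype and 233 ± 39.9 RPKM in empty vector libraries (SD, n = 3 each). Mlx followed at 30.2, 36.8 and 32.99 RPKM and Max at 27.3, 29.1 and 29.1 RPKM in mutant, wildtype and empty vector libraries; the ranges of Mlx and Max overlapped in the empty vector group. Mxd1 was at 3.51, 13.5 and 3.09 RPKM and Mxd3 at 3.07, 7.26 and 2.89 RPKM in mutant, wildtype and empty vector libraries, and their ranges overlapped in the empty vector group. Mnt, Mga, Mxi1 and Mxd4 were all below 2.11 RPKM in each library. In the mutant group neighbours in the order did not differ beyond their spread for Mnt and Mga and for Mxi1 and Mxd4, in the wildtype group for Mga, Mxi1 and Mnt, and in the empty vector group for Mga, Mnt, Mxi1 and Mxd4.

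The summed antagonist transcripts (Mxd1, Mxd3, Mxd4, Mxi1 and Mnt) were 9.75 ± 0.455 RPKM in mutant, 23.4 ± 1.97 RPKM in wildtype and 9.14 ± 0.152 RPKM in empty vector libraries (SD, n = 3 each). Set against Myc, their ratio was 0.0364, 0.0398 and 0.0413 in mutant libraries, 0.161, 0.142 and 0.131 in wildtype libraries and 0.0486, 0.0383 and 0.0333 in empty vector libraries. All wildtype libraries lay above all others, and the mutant and empty vector ranges overlapped. The mean ratio with the wildtype was 3.62 times that with the empty vector, and the mean with the mutant was 0.977 times it. Per length, Myc stood above the sum of the 5 antagonists in every library. Mxd1 alone made up 36.0% ± 2.34 of the antagonist RPKM in mutant, 57.6% ± 6.02 in wildtype and 33.8% ± 1.73 in empty vector libraries (SD, n = 3 each). Without Mxd1 but with Mxd3 still in the sum, the ratio was 0.0250, 0.0612 and 0.0266 in mutant, wildtype and empty vector libraries. In the same order, the other antagonists had means of 0.832, 1.20 and 1.02 RPKM for Mxi1, 1.73, 1.05 and 1.49 RPKM for Mnt and 0.613, 0.393 and 0.658 RPKM for Mxd4. Mnt and Mxd4 thus had their lowest means with the wildtype, unlike Mxd1 and Mxd3. The ratio of Myc to Max was 9.19 ± 0.931 in mutant, 5.64 ± 0.892 in wildtype and 8.07 ± 1.82 in empty vector libraries. These ratios describe RNA, rest on the annotated exon lengths and have no test.

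**Figure D3:**
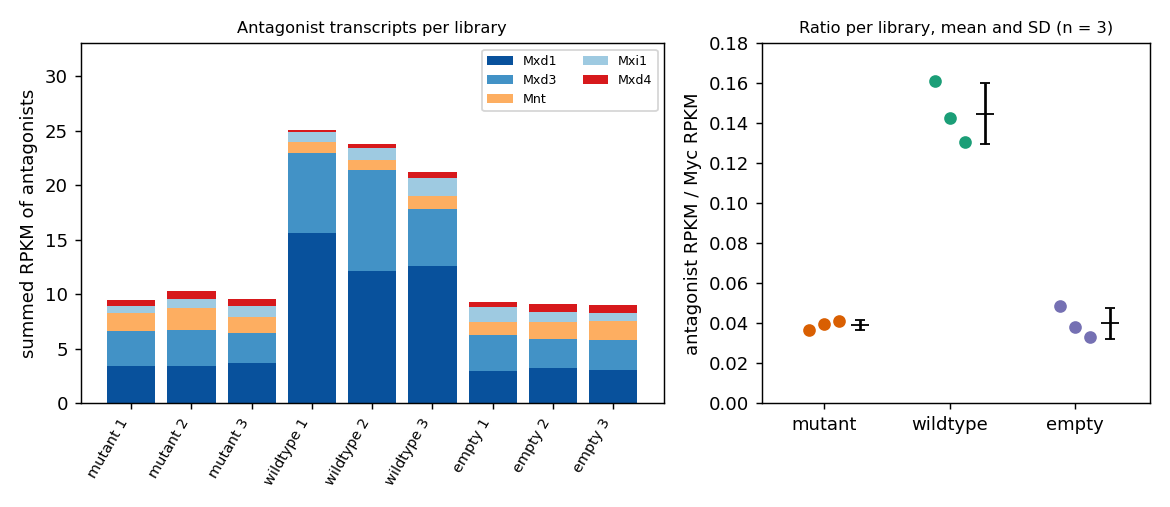
Left, summed RPKM of the 5 antagonist genes in each library, stacked by gene. Right, the same sum over Myc RPKM, with points for libraries and bars for mean and SD (n = 3). The wildtype libraries stand at 0.131 to 0.161 in the ratio, above all mutant and empty vector libraries.

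Genes around the network were taken from 6 lists chosen by role, which held 116 tested genes. The lists were chosen with earlier results of these data known, so their shares beside those of all genes are descriptions only. With the wildtype against the empty vector, 13 of them rose and 14 fell, 23.3% of the lists, the same share as the 23.3% of all tested genes. Of the 116, 0 were called with the mutant against the empty vector; 8 were without empty vector replicate 3, when calls over all genes reached 837 against 27 with it. With the mutant against the wildtype 15 were higher and 12 lower, 23.3% of the lists beside 25.9% of all genes. With the replicate block in the 6 libraries 53 were called, when calls over all genes also grew, to 4740 against 2580.

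Among 48 tested genes known to be activated by MYC for growth, 6 rose and 4 fell with the wildtype against the empty vector, 20.8% of the list beside 23.3% of all tested genes, with a median log2 fold change of −0.01. Mthfd2, a mitochondrial folate enzyme, rose by 1.06 ± 0.11 on the log2 scale, and E2f2, a cell cycle factor that is also active in erythroblasts, rose by 1.33 ± 0.14 (SE; edgeR adjusted p = 1.64e-05 and 2.23e-05). Shmt1, the cytosolic serine hydroxymethyltransferase, fell by 0.77 ± 0.11 (SE; edgeR adjusted p = 0.000323). Against the wildtype, 7 were higher and 7 lower with the mutant, 29.2% of the list beside 25.9% of all tested genes. Mthfd2 was at −0.98 ± 0.11, E2f2 at −0.90 ± 0.14 and Shmt1 at 0.65 ± 0.11 (SE, edgeR adjusted p = 3.79e-05, 0.000528 and 0.00125). The count of 14 was 9 without mutant replicate 1 or 2 and without wildtype replicate 1. Calls over all genes were then, in that order, 1471, 1570 and 1643, against 2580.

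Of 10 tested genes known to be repressed by MYC, 3 rose and 3 fell with the wildtype against the empty vector, 60% of this short list beside 23.3% of all. The 3 genes given next had the smallest p-values and all rose, so none of the 3 that fell is among them. Btg2, an antiproliferative gene, was at 85.2 ± 9.63 CPM in wildtype and 8.94 ± 0.722 CPM in empty vector libraries (SD, n = 3 each), a log2 fold change of 3.25 ± 0.15 (SE; edgeR adjusted p = 1.31e-08). Gadd45a and Gadd45g, genes of growth arrest and stress, rose by 1.57 ± 0.21 and 1.21 ± 0.22 (SE; edgeR adjusted p = 0.000118 and 0.00169). Against the wildtype, the mutant had 1 that was higher and 2 that were lower, 30% of the list beside 25.9% of all tested genes. The lower ones were Btg2 (−3.09 ± 0.15, SE) and Gadd45a (−1.62 ± 0.20, SE), with edgeR adjusted p-values of 3.11e-08 and 0.000114. Txnip, a brake on glucose uptake, was higher (0.53 ± 0.16, SE; edgeR adjusted p = 0.0274), a call that ended when any mutant library or wildtype replicate 1 was left out. Cdkn1a and Cdkn1b, inhibitors of cyclin-dependent kinases listed with them, were not called in any comparison.

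Regulators of MYC protein stability, 19 genes tested, had 3 that rose and 4 that fell with the wildtype against the empty vector. That was 36.8% of the list, beside 23.3% of all tested genes. Pim1, a kinase that stabilises MYC, rose by 0.61 ± 0.10, Aurka, the kinase Aurora A, rose by 0.47 ± 0.11, and Usp28, a deubiquitinase of MYC, fell by 0.85 ± 0.17 (SE; edgeR adjusted p = 0.000792, 0.00624 and 0.00322). Leaving out wildtype replicate 1 or empty vector replicate 2 reduced the 7 calls to 3, and leaving out mutant replicate 2 to 4. Calls over all genes were then, in that order, 1511, 1438 and 1992, against 2323. Against the wildtype, the mutant had 2 of these higher and 3 lower, 26.3% of the list beside 25.9% of all genes: Pim1 had −0.53 ± 0.10, Usp28 had 0.83 ± 0.17 and Usp36, another MYC deubiquitinase, had 0.65 ± 0.17 (SE; edgeR adjusted p = 0.00249, 0.004 and 0.0139). Those 5 calls were 2 without mutant replicate 1 and 3 without mutant replicate 2 or wildtype replicates 1 or 2, and the call of Usp36 was lost without mutant replicate 1 or wildtype replicate 2. Over all genes, calls were 1471 and 1570 without mutant replicates 1 and 2 and 1643 and 1780 without wildtype replicates 1 and 2, against 2580.

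Among 17 MYC cofactors, only Kat2a, the histone acetyltransferase GCN5, was called: it fell with the wildtype against the empty vector (−0.50 ± 0.15, SE; edgeR adjusted p = 0.0274) and was higher with the mutant than with the wildtype (0.72 ± 0.15, SE; edgeR adjusted p = 0.00383). Among 6 tested genes of the extended E-box network, only Tfe3, a factor of lysosome and energy genes, was called, in the same directions (−0.50 ± 0.14 and 0.68 ± 0.14, SE, edgeR adjusted p = 0.0223 and 0.004). In each of these comparisons the calls made up 5.88% of the cofactors and 16.7% of the extended network. Over all tested genes the shares were 23.3% for the wildtype against the empty vector and 25.9% for the mutant against the wildtype. Both falls missed the threshold when any of these libraries was left out: mutant replicate 1, wildtype replicate 1, wildtype replicate 2, empty vector replicate 2 or empty vector replicate 3. They also missed it in a fit of only the 6 wildtype and empty vector libraries (edgeR adjusted p = 0.0611 for Kat2a and 0.06 for Tfe3). Without wildtype replicate 3, 2 cofactors were called with the wildtype against the empty vector, when calls over all genes were 3255, against 2323. Cofactor calls for the mutant against the wildtype were 5 without wildtype replicate 3 and 2 without empty vector replicates 1 or 3, and extended network calls were 3 without empty vector replicate 1 and 2 when either empty vector replicate 3 or wildtype replicate 3 was left out.

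The SIN3 complex, the corepressor that MXD proteins bring to DNA, had 16 tested genes. Calls took 12.5% of them with the wildtype against the empty vector, beside 23.3% of all tested genes. For the mutant against the wildtype they took 18.8%, beside 25.9% of all. With the wildtype against the empty vector Rbbp7, a histone-binding subunit, fell by 0.45 ± 0.10, and Suds3, a SIN3 subunit, rose by 0.65 ± 0.16 (SE; edgeR adjusted p = 0.00551 and 0.0125). Leaving out wildtype replicate 2 or empty vector replicate 2 ended the call of Suds3. Without wildtype replicate 3, 4 genes of the complex were called, when calls over all genes were 3255, against 2323. In mutant against wildtype libraries Rbbp7 (0.37 ± 0.10), the scaffold gene Sin3a (0.48 ± 0.13) and Sap130 (0.49 ± 0.16) were higher (SE; edgeR adjusted p = 0.0175, 0.018 and 0.0426). Of these 3 calls 0 were left without mutant replicate 1 or 2 or with both summed, and 1 without mutant replicate 3 or wildtype replicates 1 or 2. Calls over all genes were then, in that order, 1471, 1570, 1551, 2011, 1643 and 1780, against 2580. The replicate block in all 9 libraries ended the calls of Rbbp7 and Sap130 (edgeR adjusted p = 0.0525 and 0.0637), while the block in the 6 mutant and wildtype libraries left 3 calls.

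**Figure D4:**
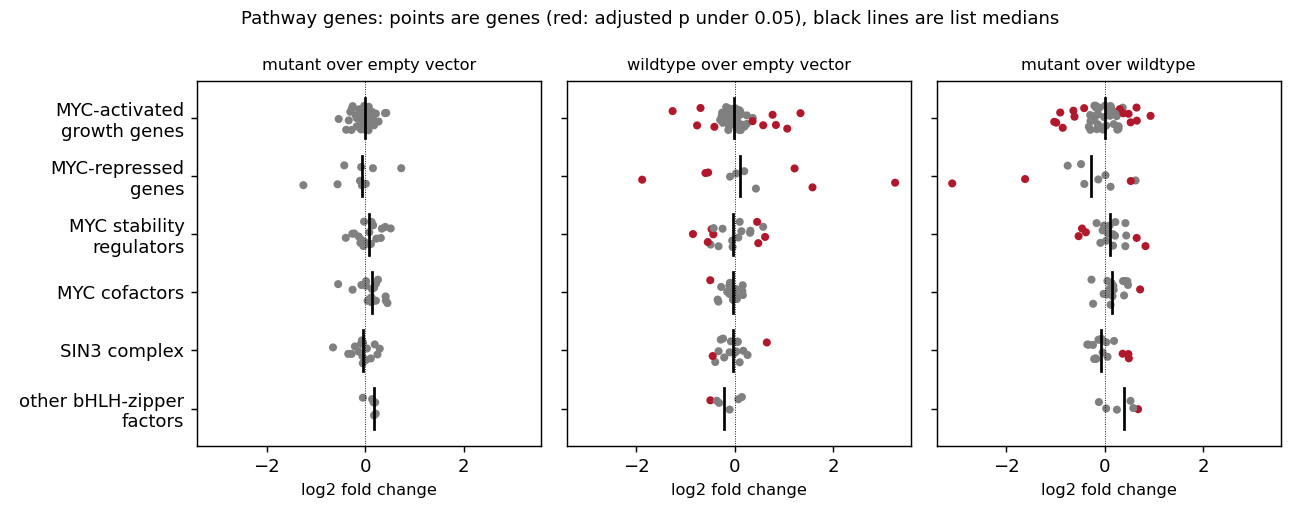
Log2 fold changes (horizontal axes) of the tested genes of the 6 lists in mutant over empty vector, wildtype over empty vector and mutant over wildtype; points are genes, red where called at an adjusted p under 0.05, and black lines are list medians. The first panel has 0 red points, and in the growth gene list of the other panels red points lie on both sides of 0.

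The genes whose log2 CPM profile over the 9 libraries, centred on its mean, was closest to that of Myc among 8100 candidates were Man2b1, Ptpn7, Eno1b, Gnai2 and Prr3, with root mean square differences of 0.0498, 0.0550, 0.0596, 0.0614 and 0.0666 on the log2 scale. Man2b1, a lysosomal mannosidase, had 95.8, 61.1 and 88.5 CPM and Ptpn7, a phosphatase of blood cells, had 347, 219 and 333 CPM on average in mutant, wildtype and empty vector libraries. Eno1b is a near-identical copy of Eno1, so its counts are uncertain. For Mxd1 the closest were Chst10, Trim10, Fam214b, Stom and Ctsb, at 0.0909, 0.105, 0.107, 0.120 and 0.122. Trim10, an erythroid ring finger gene, had 58.8, 212 and 47.8 CPM and Stom, the red cell membrane protein stomatin, had 28.3, 111 and 27.3 CPM in mutant, wildtype and empty vector libraries. These are descriptions over libraries that share their groups, with no test.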

How the data were processed

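Per the labels' protocols, total RNA was turned into libraries by Smart-seq2, a poly(A)-primed method without strand information, with Nextera-based indexing. The authors deposited raw counts of reads per gene; STAR and the builds GRCm38.p4 and hg19 are named in the submitters' processing notes, while sources used here do not name the counting tool or annotation. The human GATA1 row was kept out of the tests.

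From these counts, edgeR 4.0.16 in R 4.3.3 was run with TMM factors, filterByExpr by group, and glmQLFit and glmQLFTest with 1 mean per group over all 9 libraries (6 residual degrees of freedom). P-values were adjusted by Benjamini-Hochberg over 9978 genes in each of 3 comparisons. SEs were derived from the size of the log2 fold change and the F-statistic and are approximate. CPM used TMM-scaled totals, except for human GATA1, where it used unscaled library totals. RPKM used merged exon lengths of GENCODE M21. DESeq2 1.42.0, other factors and filters, a replicate block and leaving out each library were alternatives. The tests were tested on simulated counts, with 50 genes changed at each fold. Of genes changed 1.5-fold, 20% were called for the mutant and 28% for the wildtype against the empty vector, and 36% for the mutant against the wildtype. In the same order, 76%, 76% and 84% were called at 2-fold, and 14, 5 and 8 unchanged genes were called. In these simulations a 1.5-fold change was thus missed more often than called. Intervals are at the 95% level; floors of 3 counts cover counting error only.

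The labels give the groups and replicate numbers. The labels do not say whether numbers pair libraries. Deviations of same-numbered mutant and wildtype libraries correlated over genes at 0.171 to 0.533, but replicates 1 and 2 also correlated across numbers (0.223 and 0.240); for the empty vector they were −0.435 to −0.202 with the mutant and −0.373 to −0.222 with the wildtype.

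The members and lists were chosen with earlier results of these data known. All 10 members are named, with up to 3 called genes of smallest p per list and comparison, and the 5 genes of mean CPM of at least 5 closest in profile to Myc and to Mxd1. Cdkn1a, Cdkn1b, Mycl, Prelid1 and Psmc3ip were named outside that rule, after their values were seen. Promoters are from RefSeq (GRCm38.p6), matched by symbol for 9 of 10 members. Of 22 symbols of MYC stability regulators, 20 were in the table.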

Additional observations from a re-analysis of the deposited data

How the results depend on the processing

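Precision is limited by 3 libraries per group and by low counts of Mxd4, Mnt, Mxd3 and Mxi1. Of the member calls, those of Mxd1 and Mxd3 against the wildtype or empty vector and of Myc for the mutant against the wildtype held in all alternatives. The mutant against the empty vector gave 0 called members in every alternative, while calls over all genes ran from 7 to 837 when 1 library was left out (837 without empty vector replicate 3) and from 11 to 415 otherwise, beside 27; the cause was not tested. The wildtype against the empty vector gave 3 members, 2 to 4 without 1 library (1438 to 3255 of all genes, beside 2323) and 3 or 4 otherwise. The mutant against the wildtype gave 4 members, 3 to 5 without 1 library (1471 to 3158 of all genes, beside 2580). With mutant replicates 1 and 2 summed it gave 1551 of all genes.

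With the replicate block in all 9 libraries, 0, 3 and 4 members were called for the mutant against the empty vector, the wildtype against the empty vector and the mutant against the wildtype, as without it. Calls over all genes were then 14, 1888 and 2055, against 27, 2323 and 2580 without the block. The block follows replicate numbers, by which the empty vector libraries did not pair with the others. That block ended the calls of Kat2a and Tfe3 for the wildtype against the empty vector (edgeR adjusted p = 0.0564 and 0.0529) and called 4 stability regulators there, beside 7, and 1 SIN3 gene, beside 3, for the mutant against the wildtype. The replicate block in the 6 mutant and wildtype libraries, chosen after seeing the data, gave 7 members, 53 list genes and 4740 of all genes; the cause was not tested.

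Scaling by library totals moved the median of all genes to −0.13, against −0.04, for the wildtype against the empty vector and to 0.10, against −0.01, for the mutant against the wildtype. The calls over all genes were then 901 higher and 1500 lower, against 1137 and 1186, and 1823 higher and 918 lower, against 1313 and 1267. Upper quartile factors gave 1542 higher and 1080 lower for the mutant against the wildtype.

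List genes called for the mutant against the empty vector were 0 (27 of all genes), but 4 with no low-count filter (415 of all) and 0 to 8 without 1 library (7 to 837 of all). For the wildtype against the empty vector they were 27 (2323 of all), and 15 to 35 without 1 library (1438 to 3255 of all). For the mutant against the wildtype they were 27 (2580 of all), 16 with mutant replicates 1 and 2 summed (1551 of all) and 15 to 38 without 1 library (1471 to 3158 of all).

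The ratio of antagonist to Myc RPKM was 0.0391, 0.145 and 0.0401 in mutant, wildtype and empty vector libraries. It was 0.0250, 0.0612 and 0.0266 without Mxd1, with Mxd3 still in the sum, and 0.0466, 0.180 and 0.0479 with the length of the longest transcript.

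Signs turned only in log2 fold changes that were not called. For the mutant against the empty vector these were Myc (−0.026 to 0.22 without 1 library), Mxd4 (−0.26 to 0.045), Mlx (−0.22 to 0.036) and Mga (−0.28 to 0.096; 0.063 with mutant replicates 1 and 2 summed). For the wildtype against the empty vector they were Mxi1 (−0.028 to 0.52 without 1 library) and Max (−0.11 to 0.086; 0.0282 with DESeq2's size factors and 0.0284 in its Wald test). For the mutant against the wildtype they were Mga (−0.038 to 0.48 without 1 library) and Max (−0.19 to 0.015; 0.0074 with library totals). The cause was not tested.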
